A study of Mus musculus with 6 samples.

Results

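The genes described here are 55 mouse genes of the interferon response: receptors, nucleic acid sensors, transcription factors and induced effectors, with 5 guanylate-binding genes among the effectors. They were taken from a list by gene symbol, and each was measured by the probe set that the array annotation assigned to that gene and no other; where a gene had several, the one with the highest mean over the 6 arrays was used. By this rule 48 of the 55 were measured, out of 19938 genes in all. Gbp2, Gbp6, Ifi47, Igtp, Irgm2, Isg15 and Ifi44 had no such probe set in the annotation used and were not analysed here. The samples were pre-B cells of 129SvEv mice transformed by BCR-ABL1, a fusion oncogene that drives human acute lymphoblastic leukemia with the Philadelphia chromosome. In 3 samples the cells were wild type for Etv5, an ETS-family transcription factor, and in 3 they were Etv5 knockout; both groups carried BCR-ABL1. The labels do not say which exons the knockout allele lacks, whether mice or cultures differed between replicates, or whether samples were clones or pools. The p-values therefore reflect the spread of these 6 samples alone, and that spread may be technical.

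Interferons are secreted proteins that cells make when sensors such as MDA5 and RIG-I detect foreign or misplaced nucleic acid. Type I interferons bind the IFNAR receptor and activate a complex that includes STAT2 and IRF9 and binds the interferon-stimulated response element (ISRE); interferon gamma binds the IFNGR receptor and acts through the gamma-activated site (GAS). The genes switched on in this way include RNA-binding IFIT proteins, OAS and other RNA-acting enzymes, membrane proteins that block viral entry, and large GTPases, among them the guanylate-binding proteins, which attack the membranes around intracellular microbes.

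All values are log2 probe-set signals, and a difference is the knockout mean minus the wild-type mean, tested with limma and adjusted over all probe sets; a gene was counted as risen or fallen at an adjusted p under 0.05. With 3 samples a group the smallest p of an exact permutation test is 0.10, so none was run. Array medians lay between 7.79 and 7.84. Across probe sets, which are not independent replicates, arrays correlated at r = 0.994 to 0.997 within a genotype and 0.991 to 0.994 across genotypes. Etv5 had 2 probe sets. The one numbered among chromosome 16 probe sets, where Etv5 lies, fell by 0.43 (adjusted p = 0.0467), from 9.37 ± 0.14 to 8.93 ± 0.033 (SD, n = 3). Its knockout signal still lay above the dim reference given below. The other, brighter probe set was higher in the knockout, at 11.76 against 11.49, a difference of 0.28 (adjusted p = 0.13). It is numbered among chromosome 10 probe sets, so it may not measure Etv5. The B lineage label held: none of 13 measured B lineage markers was dim in both genotypes. A signal was called dim when both group means were at or under 7.28, the level below which 95% of 1027 olfactory receptor genes lay.

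Of the 48 genes, 7 rose in the knockout (Samhd1, Sp100, Zbp1, Gbp3, Gbp7, Ifit2 and Ifngr2), 2 fell (Ifitm3 and Ifih1) and 39 did not pass. Over all 19938 genes, 2.42% rose and 2.01% fell. The 48 genes were chosen with earlier results of these data known, so their counts are a description only. The 9 that changed belonged to 6 role groups, and the transcription factors, the immunity-related and Mx GTPases, the RNA-acting enzymes and the ISG15 and TRIM regulators had none. The set did not shift as a whole: its median difference was -0.0048, beside -0.0039 for all genes, with 23 differences above 0 and 25 below. The median size of a difference, without its sign, was 0.091 beside 0.061 for all genes. At an unadjusted limma p under 0.05, 9 genes were higher and 6 lower, beside 1435 higher and 1246 lower of all 19938 genes. No knockout value fell within the wild-type range, nor the reverse, for 23 of the 48 genes, 13 higher and 10 lower, a separation seen in 20.5% of all genes. Among the 41 genes that were not dim, the same 7 rose and 2 fell; of all 13169 genes that were not dim, 3.45% rose and 2.95% fell. The 7 dim genes were Ifit1, Ifit3, Iigp1, Mx1, Mx2, Rsad2 and Cxcl10, and none of them passed. Since whole samples were measured, fewer cells that express a gene and less RNA per cell cannot be told apart.

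**Figure D1:**
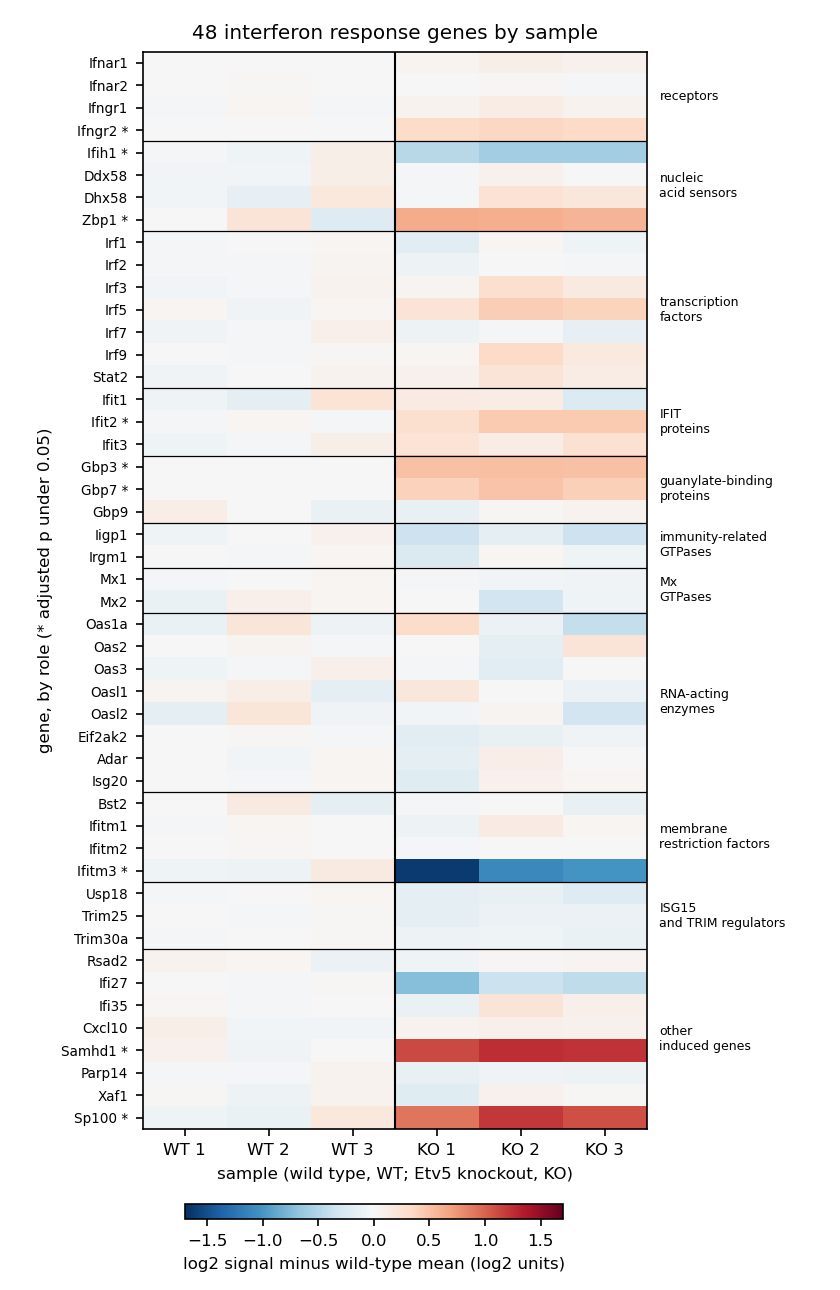
Each row is 1 of the 48 genes, ordered by role, and each column 1 of the 6 samples; the colour gives the log2 signal minus that gene's wild-type mean. Samhd1 and Sp100 are the most raised rows in all 3 knockout samples, Ifitm3 is the most lowered, and most other rows stay near 0.

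The guanylate-binding genes of mouse chromosome 3 lie next to each other in the order Gbp5, Gbp7, Gbp3, Gbp2b and Gbp2, and the 4 of them with a probe set of their own all rose. Their sequences upstream of the start are shown because the 4 genes moved the same way. Each run is the plus strand of RefSeq assembly GRCm38.p6, 5′ to 3′, from base -170 to base -1 before the annotated start, and the capitals mark matches to the ISRE letters, a pair of GAAA runs with any 2 bases between, here on the opposite strand. The runs lie at chr3:142496764-142496933, chr3:142530166-142530335, chr3:142559874-142560043 and chr3:142594677-142594846.
Gbp5: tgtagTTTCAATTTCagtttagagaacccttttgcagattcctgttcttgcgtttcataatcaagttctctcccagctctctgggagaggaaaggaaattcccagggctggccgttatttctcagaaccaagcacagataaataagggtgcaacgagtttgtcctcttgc
Gbp7: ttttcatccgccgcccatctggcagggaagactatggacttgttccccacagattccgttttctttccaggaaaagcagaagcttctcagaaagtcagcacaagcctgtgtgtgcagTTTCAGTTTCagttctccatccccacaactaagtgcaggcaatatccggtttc
Gbp3: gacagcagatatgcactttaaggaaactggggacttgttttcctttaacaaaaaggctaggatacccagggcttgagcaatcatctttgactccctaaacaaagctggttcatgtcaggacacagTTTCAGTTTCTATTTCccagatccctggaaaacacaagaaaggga
Gbp2b: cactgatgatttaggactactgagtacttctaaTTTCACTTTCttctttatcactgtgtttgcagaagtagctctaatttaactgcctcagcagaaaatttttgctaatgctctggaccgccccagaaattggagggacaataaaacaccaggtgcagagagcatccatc
In Gbp3 a pair of overlapping matches forms 1 run of capitals, from base -45 to base -30. The match of Gbp7 spans bases -53 to -44, that of Gbp2b bases -137 to -128 and that of Gbp5 bases -165 to -156.

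Of the IFIT genes of chromosome 19, Ifit2 rose, and Ifit1, which was dim, did not pass. Their upstream sequences are shown because they differ in the letters they hold. Ifit1 carries 2 ISRE matches in its window, marked in capitals from base -120 to base -1 (chr19:34640769-34640888, plus strand, same assembly). Ifit2 has no match to those letters in its windows; its run from base -250 to base -131 (chr19:34550444-34550563, plus strand) has in capitals first a match to the GAS letters TTCNNNGAA and then one to the ETS letters CCGGAAG, the core that ETS-family factors bind.
Ifit1: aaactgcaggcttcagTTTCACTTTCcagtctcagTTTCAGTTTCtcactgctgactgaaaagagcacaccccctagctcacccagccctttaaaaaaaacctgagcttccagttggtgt
Ifit2: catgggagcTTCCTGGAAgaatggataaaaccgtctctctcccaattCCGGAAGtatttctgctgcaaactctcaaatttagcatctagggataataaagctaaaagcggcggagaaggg
A match of letters is a description and not a binding site or a cause, and no match says only that these letters are not in the window.

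Among all genes with a RefSeq window of 250 bases before to 50 after a start, searched on both strands, 3.99% of 27025 held the ISRE letters, 9.55% the GAS letters and 9.93% the ETS letters. Of the 55 listed genes 44 had a window. The ISRE letters were found in 22 of them (50%), the GAS letters in 16 (36.4%) and the ETS letters in 4 (9.09%), which were Ifih1, Ifit2, Ifnar1 and Rsad2. Matches of different motifs overlapped in 2 windows, those of Ifitm3 and Bst2. The ISRE letters were in 2 of the 6 risen genes with a window (Gbp3 and Gbp7), in both fallen genes (Ifih1 and Ifitm3) and in 14 of 30 that did not pass. The GAS letters were in 3 of the 6 risen genes (Gbp7, Ifit2 and Samhd1), in 1 of the 2 fallen genes (Ifitm3) and in 10 of 30 that did not pass. The ETS letters were in 1 risen gene (Ifit2), 1 fallen gene (Ifih1) and 2 of 30 that did not pass, and none of these shares was tested. Samhd1, the most raised gene, had 1 GAS match, at bases -235 to -227, and none of the other motifs.

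Of the receptor genes, the one for the signalling chain of the interferon gamma receptor rose and the other 3 did not pass. Ifngr2 gave 12.47, 12.48 and 12.49 in wild-type samples 1 to 3 and 12.79, 12.84 and 12.80 in knockout samples 1 to 3. The groups lay well apart, with little spread in either. The difference was 0.33 ± 0.046 (SE, 95% interval 0.22 to 0.44, limma adjusted p = 0.0162). The call held in only 1 of the 6 fits that left out a sample, that without knockout sample 1 (adjusted p = 0.0465). Without wild-type samples 1, 2 and 3 in turn the adjusted p was 0.0935, 0.0885 and 0.0609, and without knockout samples 2 and 3 it was 0.0584 and 0.0845; over all alternatives it ran from 0.00049 to 0.114.

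Its partner Ifngr1, the chain that binds interferon gamma, gave 11.52, 11.57 and 11.51 in wild-type cells and 11.60, 11.65 and 11.60 in knockout cells. The groups did not overlap, but they stood close together. The difference was 0.08 (95% interval -0.03 to 0.20, adjusted p = 0.693). Ifnar1, a chain of the type I interferon receptor, gave 11.81, 11.81 and 11.82 against 11.86, 11.91 and 11.89, a difference of 0.07 (95% interval -0.04 to 0.18, adjusted p = 0.72). Here too every knockout sample was slightly higher. Ifnar2, the other chain, gave 11.83, 11.85 and 11.82 against 11.83, 11.85 and 11.82, and its interval of -0.11 to 0.11 was centred on 0. Ifngr2, Ifnar1, Ifnar2, Parp14 and the dim genes Mx1 and Mx2 lie on chromosome 16, as Etv5 does; their differences were 0.33, 0.07, 0.00, -0.09, -0.04 and -0.13.

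Of the 4 nucleic acid sensors, Zbp1 rose, Ifih1 fell and Ddx58 and Dhx58 did not pass. Ifih1, which encodes the RNA sensor MDA5, gave 7.56, 7.52 and 7.69 in wild-type cells and 7.12, 7.0 and 7.0 in knockout cells. Every knockout sample was lower, and their mean lay under the dim reference while the wild-type mean lay above it, so the size of the fall is uncertain. Ifih1 fell by 0.55 ± 0.068 (SE, limma adjusted p = 0.0101). The call was lost without wild-type sample 1 (adjusted p = 0.0527), knockout sample 2 (0.0505) or knockout sample 3 (0.0582), within a range of 0.0013 to 0.0623 over all alternatives. Zbp1, a sensor of Z-form nucleic acid that can trigger cell death, gave 7.75, 7.98 and 7.54 in wild-type cells and 8.38, 8.37 and 8.33 in knockout cells. The wild-type samples were spread out and the knockout samples were nearly equal, with no overlap.

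Zbp1 rose by 0.61 ± 0.11 (SE, adjusted p = 0.0478), close to the threshold. It kept its call only without wild-type sample 2 (adjusted p = 0.0226), and the other 5 fits, without wild-type samples 1 and 3 and knockout samples 1, 2 and 3, gave 0.179, 0.0676, 0.14, 0.167 and 0.161; all alternatives ran from 0.0082 to 0.179. Ddx58, which encodes the RNA sensor RIG-I, gave 10.37, 10.37 and 10.51 against 10.39, 10.48 and 10.40 and did not pass (difference 0.01, 95% interval -0.14 to 0.16). The groups overlapped. Dhx58, encoding LGP2, a relative of these sensors, differed by 0.14 with overlapping groups (adjusted p = 0.841).

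None of the 7 transcription factor genes passed. The nearest was Irf5, a factor of Toll-like receptor signalling, with 10.34, 10.25 and 10.35 in wild-type cells and 10.55, 10.73 and 10.69 in knockout cells. All 3 knockout samples were higher. The difference was 0.34 (95% interval 0.18 to 0.50, adjusted p = 0.0591), and it passed without knockout sample 1 (adjusted p = 0.0462), with a range of 0.0155 to 0.226 over all alternatives. Stat2, a subunit of the complex that binds the ISRE, gave 9.85, 9.91 and 9.97 against 9.98, 10.13 and 10.03, a difference of 0.14 (95% interval -0.01 to 0.29, adjusted p = 0.519). The highest wild-type sample and the lowest knockout sample nearly met. Irf9, which belongs to the same complex, differed by 0.17 (adjusted p = 0.537). Irf2, which can repress interferon genes, gave 11.82, 11.83 and 11.89 against 11.75, 11.84 and 11.82 and overlapped between the genotypes. The other 3 also lacked a call: Irf1, a first-wave target of interferon gamma, differed by -0.07, Irf3, which switches on the interferon beta gene, by 0.16, and Irf7, which amplifies type I interferon production, by -0.08.

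Of the IFIT genes, which encode RNA-binding antiviral proteins, Ifit2 rose and the dim genes Ifit1 and Ifit3 did not pass; differences between them were not tested. Ifit2 gave 9.94, 9.999 and 9.95 in wild-type cells and 10.24, 10.41 and 10.41 in knockout cells. All 3 knockout samples were higher, sample 1 the least. Ifit2 rose by 0.39 ± 0.065 (SE, limma adjusted p = 0.0333). It kept its call only without knockout sample 1 (adjusted p = 0.0237). Without wild-type samples 1, 2 and 3 and knockout samples 2 and 3 the adjusted p was 0.152, 0.113, 0.11, 0.117 and 0.147, and all alternatives ran from 0.0073 to 0.152. Ifit3 gave 6.21, 6.26 and 6.38 against 6.51, 6.41 and 6.55, all dim, with a difference of 0.21 (adjusted p = 0.305). The groups stood apart by little. Ifit1, often used as a marker of type I interferon exposure, was dim and differed by 0.01 (95% interval -0.33 to 0.36).

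Gbp3, Gbp7 and their chromosome 3 neighbours Gbp5 and Gbp2b, which came from the wider interferon list described below, all rose. Gbp3 gave 10.93, 10.95 and 10.94 in wild-type cells and 11.44, 11.46 and 11.45 in knockout cells. Samples of a genotype were almost equal and the groups far apart relative to that spread. It rose by 0.51 ± 0.045 (SE, limma adjusted p = 0.0029), with an adjusted p of at most 0.0254 when 1 sample was left out. Gbp7 gave 12.90, 12.91 and 12.91 against 13.30, 13.39 and 13.31. It stood apart in the same way and rose by 0.43 ± 0.050 (SE, adjusted p = 0.00838); its call was lost without wild-type sample 1 (adjusted p = 0.0554) and no other sample, and all alternatives ran from 0.000275 to 0.0665.

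Gbp5, which helps inflammasomes to form, gave 9.52, 9.49 and 9.55 in wild-type cells and 10.29, 10.36 and 10.24 in the knockout, a rise of 0.78 ± 0.055 (SE, adjusted p = 0.00128). Gbp2b gave 9.41, 9.38 and 9.32 against 10.35, 10.40 and 10.35, a rise of 0.995 ± 0.051 (SE, adjusted p = 0.00043). In both genes all 3 knockout samples lay far above the wild type, and both calls held whichever sample was left out. The second cluster of this family lies on chromosome 5, and none of its measured genes passed. Gbp9 gave 9.07, 8.95 and 8.84 against 8.83, 8.98 and 9.02, a difference of -0.01 (95% interval -0.22 to 0.19). Its groups overlapped fully. Gbp8 and Gbp4 differed by 0.07 and 0.21 and Gbp11, a further family member, by 0.35 (adjusted p = 0.12). The difference between the clusters was not tested.

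**Figure D2:**
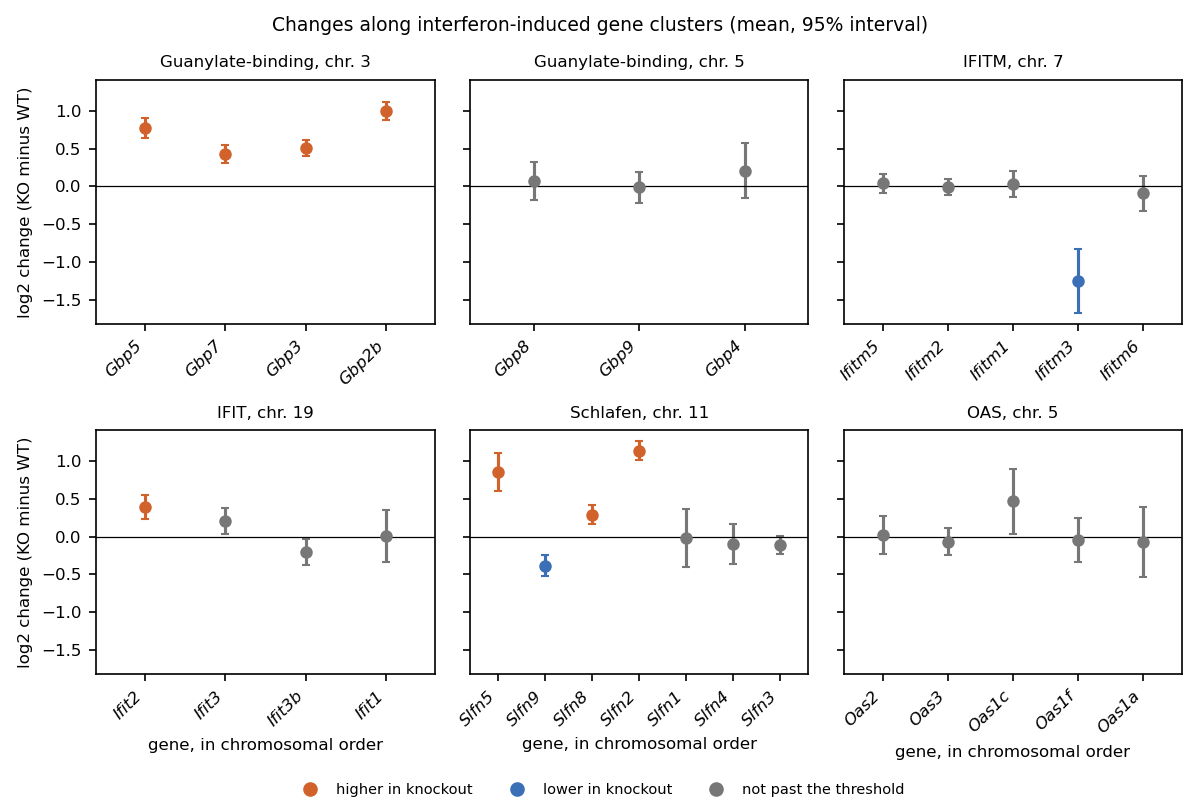
Log2 change, knockout minus wild type, of the measured genes in 6 clusters of interferon-induced genes, in chromosomal order; points are means and bars 95% intervals from limma. The 4 guanylate-binding genes on chromosome 3 rose by 0.425 to 0.995, while the 3 plotted on chromosome 5 lie between -0.01 and 0.21 and did not pass.

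No immunity-related or Mx GTPase among the 48 genes passed. Iigp1, which acts on the vacuoles of intracellular parasites, was dim at 5.62, 5.69 and 5.76 in wild-type cells and 5.34, 5.53 and 5.34 in knockout cells. The knockout samples were lower without overlap, and the difference of -0.29 had an adjusted p of 0.152. Irgm1, a regulator of the same family, gave 11.34, 11.31 and 11.37 against 11.09, 11.37 and 11.26 and differed by -0.10 (adjusted p = 0.843). Its groups overlapped, with knockout sample 1 the lowest. Of the Mx genes, which encode antiviral GTPases, Mx2 gave 5.64, 5.83 and 5.78 against 5.76, 5.42 and 5.68 and Mx1 differed by -0.04; both were dim.

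None of the 8 RNA-acting enzymes passed, with differences from -0.13 for Eif2ak2, which encodes the RNA-activated kinase PKR, to 0.03 for the OAS-like gene Oasl1. Eif2ak2 had an adjusted p of 0.48, and all 3 of its knockout samples were lower. Isg20, an RNA exonuclease, gave 10.49, 10.46 and 10.52 in wild-type cells and 10.29, 10.57 and 10.52 in the knockout, and the groups overlapped. The OAS genes, whose enzymes make the activator of RNase L, differed by -0.07 (Oas1a and Oas3) and 0.02 (Oas2), Oasl2 by -0.11 and Adar, the RNA editing enzyme, by -0.01. Oas1a was the most variable of the 48 genes in the knockout, with an SD of 0.36 (n = 3), so its 95% interval ran from -0.53 to 0.39.

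Among the membrane restriction factors, Ifitm3 fell and its neighbours did not pass. Ifitm3, which blocks entry of enveloped viruses, gave 8.51, 8.50 and 8.73 in wild-type cells and 6.95, 7.48 and 7.56 in knockout cells. Every knockout sample was lower, and knockout sample 1 was the lowest by a wide margin. It fell by 1.25 ± 0.17 (SE, limma adjusted p = 0.0157), a 95% interval of -1.67 to -0.83. The call held without knockout sample 1 (adjusted p = 0.0102) or 3 (0.033) and was lost without knockout sample 2 (0.0522) or wild-type samples 1, 2 or 3 (0.0675, 0.0565 and 0.0621); all alternatives ran from 0.0015 to 0.0675. The knockout mean, 7.33, lay just above the dim reference, where array signals compress differences.

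Ifitm2 and Ifitm1, related genes on chromosome 7 with Ifitm1 directly beside Ifitm3, did not pass. Ifitm2 gave 13.16, 13.18 and 13.16 in wild-type cells and 13.14, 13.17 and 13.17 in the knockout, a difference of -0.01 (95% interval -0.12 to 0.10). The 6 samples overlapped. That probe set is numbered among chromosome 11 probe sets, so it may not measure the chromosome 7 gene, and the 2 others of Ifitm2 differed by 0.00 and -0.11 (adjusted p = 0.997 and 0.687). Ifitm1 differed by 0.03, and by -0.05 in a second probe set numbered among those of chromosome 8. Bst2, or tetherin, which holds budding virus at the cell surface, differed by -0.05.

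The ISG15 and TRIM regulators were all slightly lower in the knockout samples, without a call. Usp18, which removes ISG15 from proteins and dampens the type I receptor, gave 7.66, 7.69 and 7.73 in wild-type cells and 7.54, 7.56 and 7.48 in the knockout (difference -0.16, adjusted p = 0.267). Trim25, a ubiquitin ligase that activates RIG-I, gave 11.19, 11.16 and 11.21 against 11.02, 11.08 and 11.09 (difference -0.12, adjusted p = 0.424). Trim30a, an inhibitor of Toll-like receptor signalling, gave 12.13, 12.17 and 12.18 against 12.07, 12.09 and 12.05 (difference -0.09, adjusted p = 0.638). In each of the 3 genes the groups did not overlap, a separation seen in 20.5% of all genes. The gaps were small beside the changes of the genes that passed.

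The remaining induced genes held the largest rises. Samhd1, which encodes a dNTP-degrading enzyme that restricts retroviruses, gave 9.29, 9.15 and 9.21 in wild-type cells and 10.34, 10.48 and 10.45 in knockout cells. The groups lay far apart. Samhd1 rose 2.31-fold, by 1.21 ± 0.064 on the log2 scale (SE, limma adjusted p = 0.00047). Sp100, a component of PML nuclear bodies, gave 7.88, 7.85 and 8.14 against 8.87, 9.16 and 9.06. Its lowest knockout sample stood well above its highest wild-type sample. It rose by 1.07 ± 0.11 (SE, adjusted p = 0.00527). Both genes kept their calls whichever sample was left out (adjusted p at most 0.0052 for Samhd1 and 0.034 for Sp100).

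Ifi27, which encodes a small interferon-induced hydrophobic protein, gave 10.35, 10.30 and 10.37 in wild-type cells and 9.62, 9.97 and 9.91 in knockout cells. Every knockout sample was lower, knockout sample 1 the most. The difference of -0.51 (95% interval -0.75 to -0.27) had an adjusted p of 0.0599 and passed without knockout sample 1 (0.0383), within a range of 0.0119 to 0.216 over all alternatives. Parp14, an ADP-ribosyltransferase, gave 10.24, 10.25 and 10.33 against 10.15, 10.21 and 10.18 and differed by -0.09 (adjusted p = 0.658). Its groups did not overlap, by a small gap. Rsad2, which encodes viperin, and the chemokine gene Cxcl10, both commonly induced by interferon, were dim and differed by 0.00 and 0.07. Ifi35 and the XIAP-binding gene Xaf1 differed by 0.07 and -0.04.

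**Figure D3:**
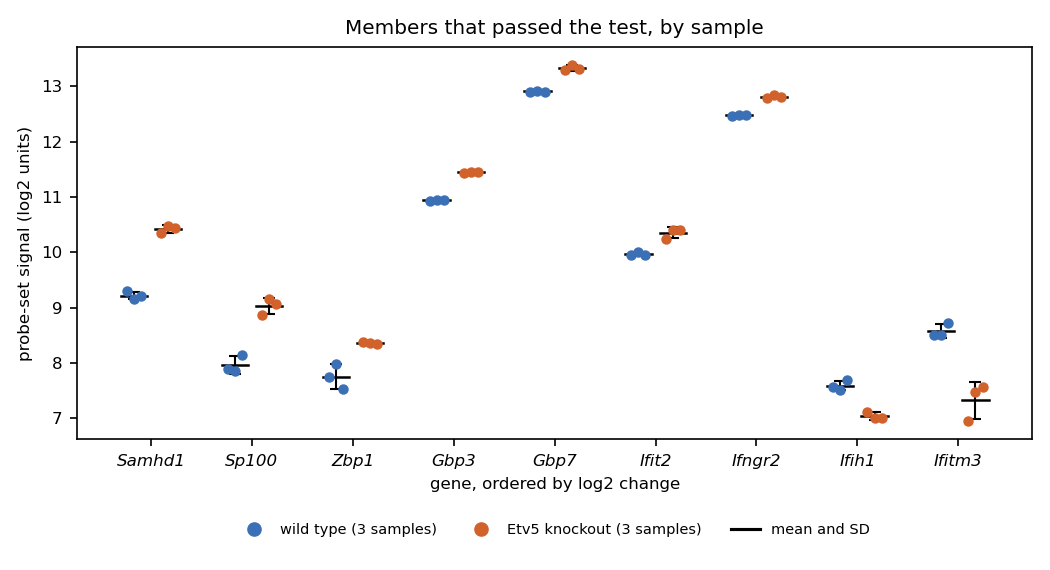
Log2 signal of the 9 genes that passed, in wild-type and knockout samples (points, 3 each), with mean and SD, ordered by log2 change. In each gene the 3 knockout points lie apart from the 3 wild-type points; Zbp1 in wild-type cells and Ifitm3 in the knockout are the most spread.

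**Figure D4:**
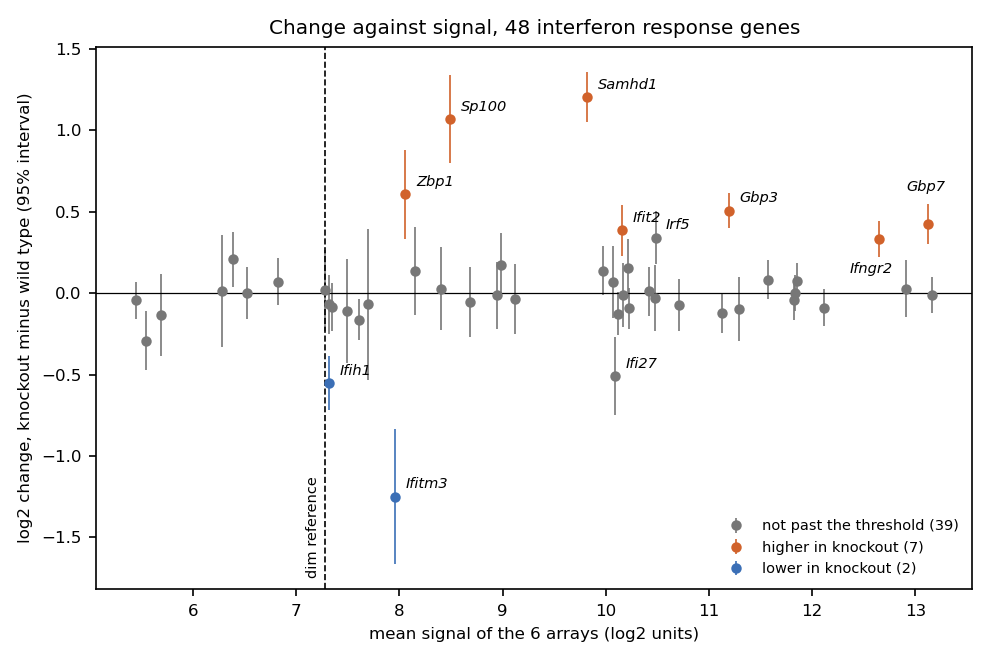
Log2 change, knockout minus wild type, with its 95% interval, against the mean log2 signal of the 6 arrays for the 48 genes; the dashed line is the dim reference of 7.28. No gene left of the line passed, and the 9 that did lie between means of 7.32 and 13.12.

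No difference was detected in the interferon genes that were measured. Of 22 ligand genes, 16 were measured, and 9 of the 16 were dim. None passed, beside 2.42% of all genes that rose and 2.01% that fell. None had an unadjusted limma p under 0.05. None had groups that lay apart, a separation seen in 20.5% of all genes. The differences ran from -0.13 to 0.07. Ifnb1, the gene of interferon beta, was dim at 6.14, 6.14 and 6.0 in wild-type cells and 6.21, 6.03 and 5.97 in knockout cells. Ifng, the gene of interferon gamma, gave 7.71, 7.78 and 7.52 against 7.76, 7.76 and 7.51. In both genes the samples of the genotypes were interleaved, with 95% intervals of -0.22 to 0.18 and -0.24 to 0.25.

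A wider list of 149 further interferon pathway genes, 128 of them measured, held 15 that rose, 8 that fell and 105 that did not pass, with a median difference of 0.03. In the same fit, 2.42% of all genes rose and 2.01% fell. The list was chosen with earlier results of these data known, so these shares are a description only. Among 12 kinase and feedback genes, 2 rose and 1 fell. Tyk2, the kinase bound to the type I interferon receptor, gave 10.67, 10.67 and 10.73 in wild-type cells and 9.26, 9.43 and 9.39 in knockout cells. Every knockout sample was lower by more than 1 log2 unit. Tyk2 fell by 1.33 ± 0.062 (SE, 2.51-fold, limma adjusted p = 0.00031) and kept its call whichever sample was left out. Jak1, the partner kinase, gave 12.88, 12.88 and 12.94 against 12.67, 12.75 and 12.66, a difference of -0.21 (95% interval -0.33 to -0.09, adjusted p = 0.128). Its groups did not overlap. The JAK inhibitor gene Socs1 rose by 0.45 (adjusted p = 0.0416), from 9.95, 9.97 and 10.12 to 10.41, 10.59 and 10.39, and Ptpn6, which encodes the phosphatase SHP-1, by 0.29 (adjusted p = 0.0437). Neither kept its call in any of the 6 fits that left out a sample (adjusted p 0.0553 to 0.172 and 0.103 to 0.197), while over all alternatives the lowest values were 0.0081 and 0.0079.

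Of 19 genes of the sensing pathways, Tlr9, the Toll-like receptor of CpG DNA, rose by 0.59 (limma adjusted p = 0.0032), and Unc93b1, which escorts that receptor to endosomes, by 0.40 (adjusted p = 0.0427). Tlr9 kept its call without any 1 sample, and Unc93b1 lost it in all 6 such fits (adjusted p 0.0674 to 0.168; lowest over all alternatives 0.0092). Of 6 other IRF and related factor genes, Irf4, a factor of lymphocyte activation, rose by 0.52 (adjusted p = 0.00689) and kept its call in each such fit. Irf8, its relative in B cell precursors and myeloid cells, fell by 0.34 (adjusted p = 0.0315), and Prdm1, which encodes the repressor BLIMP-1, fell by 0.28 from a signal close to the dim reference (adjusted p = 0.0361). Irf8 and Prdm1 lost their call in all 6 fits (adjusted p 0.0662 to 0.146 and 0.0852 to 0.176; lowest over all alternatives 0.0045 and 0.0125). Among 10 further GTPase genes, Gbp5 and Gbp2b rose and Gm12250, an immunity-related GTPase gene, fell by 0.93 (adjusted p = 0.0014). Gm12250 gave 10.22, 10.22 and 10.21 in wild-type cells and 9.18, 9.40 and 9.26 in the knockout, and the fall held whichever sample was left out.

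The other 81 measured effectors held 8 risen and 4 fallen genes, beside 2.42% and 2.01% of all genes. Ifi30, a lysosomal thiol reductase of antigen processing, rose by 1.46 (2.74-fold, limma adjusted p = 0.00062), from 10.85, 10.76 and 11.02 to 12.26, 12.43 and 12.32. Lgals3bp, which encodes a secreted galectin-binding protein, fell by 1.14 (adjusted p = 0.00136), and Ms4a6b, of the membrane-spanning 4A family, rose by 1.35 (adjusted p = 0.0055) from a dim wild-type signal of 6.22. These 3 calls held in every fit that left out a sample. Ms4a4c, of the same family, lay among the dimmest 40% of probe sets and rose by 1.02 (adjusted p = 0.0151). The inflammasome protease gene Casp1 rose by 0.93 (adjusted p = 0.0233). Both kept their call only without knockout sample 1 or 3, with a highest adjusted p of 0.0576 and 0.0969 in the others. The necroptosis gene Mlkl fell by 0.67 (adjusted p = 0.0194) and Calhm6, of a channel family, by 0.52 (adjusted p = 0.0183). Mlkl kept its call only without knockout sample 2 and Calhm6 only without knockout sample 1 (highest adjusted p 0.0931 and 0.0864 in the others). Daxx, a partner of PML bodies, rose by 0.37 (adjusted p = 0.0246) and lost its call in all 6 fits (0.0502 to 0.121).

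Of the schlafen genes, which sit side by side on chromosome 11 and restrain growth or viral replication, 3 rose, 1 fell and 3 did not pass. They are counted among the effectors above, and over all genes 2.42% rose and 2.01% fell. They came from the list chosen with earlier results known, so their count is a description only. Slfn2 rose by 1.13 (limma adjusted p = 0.00028), from 10.93, 10.98 and 10.88 in the wild type to 12.04, 12.08 and 12.07 in knockout cells. The groups were far apart, and the call held whichever sample was left out. Slfn5 rose by 0.86 (adjusted p = 0.0095) within a dim range and lost its call without knockout sample 2 or 3 (adjusted p = 0.0522 and 0.0517). Slfn8 rose by 0.29 and Slfn9 fell by 0.38 (adjusted p = 0.0452 and 0.0194), and both lost their call in all 6 fits (0.122 to 0.164 and 0.0501 to 0.0961). Slfn1, Slfn3 and Slfn4 did not pass.

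Markers of other cell types that a culture of transformed cells could hold were read beside these results. None of 11 macrophage and monocyte markers passed. Of these, 7 were dim, Csf1r and Adgre1 among them, and Lyz1, Lyz2, Cd68 and Marco were not. Their summed linear signal ran from 1948 to 2011 in wild-type cells and from 1880 to 2166 in knockout cells. The groups did not overlap for 5 of the 11, beside 20.5% of all genes. Cd68, Mrc1 and Fcgr1 were higher (0.34, 0.31 and 0.20) and Lyz2 and Ccr2 lower (-0.32 and -0.46). None of 10 T and NK cell markers passed, 7 were dim, Cd3d and Cd3g among them, and the sums were 1213 to 1283 and 1211 to 1329. Of 8 stromal markers none passed and 5 were dim (1569 to 1800 against 1523 to 1748). Of 7 markers of plasmacytoid dendritic cells, which are strong interferon producers, 2 were dim and only Spib, also a B lineage factor, rose (0.75). The sum, which includes Spib, was 5707 to 6083 against 7525 to 8028. The differences of the other markers ran from -0.18 (Lair1) to 0.13 (Cox6a2). Of 6 markers of conventional dendritic cells, 4 were dim and only Flt3, also expressed by early lymphoid progenitors, rose (1.27). The sum, which includes Flt3, was 720 to 784 against 957 to 1084. The differences of the other 5 markers were all below 0. The sum of 13 B lineage markers was 98622 to 100626 against 102013 to 105427. Pax5 was higher (limma adjusted p = 0.0127) and Vpreb2 lower (0.045). With 1 sample left out, Pax5 kept its call in 3 of the 6 fits and Vpreb2 in none. The groups did not overlap for 8 of the 13, 6 higher and 2 lower, beside 20.5% of all genes. The part that any of these differences had in the results was not tested.

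Single samples also stood off their group. Relative to the mean of its own genotype, knockout samples 1, 2 and 3 were higher in 14, 40 and 26 of the 48 genes, with median deviations of -0.033, 0.041 and 0.0024. Over all genes, they were above their genotype mean in 43.1%, 71.4% and 33.6%. In the wild type, samples 1, 2 and 3 were above their mean in 13, 18 and 30 of the 48 genes, and in 35.8%, 58.2% and 51.6% of all genes.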

How the data were processed

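Biotin-labelled total RNA from 6 samples was measured on Affymetrix arrays with 1 colour, per the labels. For 35556 probe sets the authors deposited log2 values made with RMA and Partek 6.5, per the submitters' processing notes; that they are log2 values follows from their range. RMA background-corrects, quantile-normalizes and summarises probes, so that differences of dim probe sets are compressed. The sources used here do not give background settings, the chip definition or detection calls, and the number of arrays limits the precision. Samples were grouped by the genotype in their labels.

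Knockout was compared with wild type in R 4.3.3 by limma 3.58.1 (lmFit, eBayes without a trend, all 6 samples, no covariate, no filter), with Benjamini-Hochberg adjustment over all 35556 probe sets. The fit was also run on simulated data with known changes and independent noise, which does not cover deviations shared by many genes of a sample. Genes were named through the platform annotation table, and probe sets with several symbols were used for no gene. The members and lists were chosen with earlier results of these data known. Values of all 6 samples are given for members that passed or had an unadjusted p under 0.05, the 4 receptors, Stat2 and the member of highest mean in each role group, and for Gbp9, added after its values were seen; of other pathway and ligand genes, those that passed are named, with Jak1, Ifnb1 and Ifng. Gbp11, Gbp8, Gbp4 and the schlafen genes that did not pass were named after their values were seen, to complete gene clusters. Alternatives tried were a block on the sample number, the dimmest 40% left out, single-gene probe sets only, a gene's mean, quantile, median and cyclic loess normalization, a robust variance trend, array weights, adjusted p thresholds of 0.01 and 0.10, and each sample left out in turn.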

Additional observations from a re-analysis of the deposited data

Results flagged for a closer look

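A probe set outside the single-gene rule carried a larger rise than any of the 48 genes. Probe set 10496592, annotated to more than 1 guanylate-binding gene, so that no gene can be named from it, gave 9.60, 9.52 and 9.64 in wild-type cells and 11.09, 11.25 and 11.15 in knockout cells. It rose by 1.57 (2.98-fold, 95% interval 1.42 to 1.73, limma adjusted p = 0.00019). The comparisons above use no shared probe set, and this one is described because it passed. The other 4 shared probe sets that carry one of the unmeasured genes did not pass.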

How the results depend on the processing

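No called difference changed sign under any alternative, and all 9 member calls held under quantile, median and cyclic loess normalization. Irf5 and Ifi27, without a call in the fit reported above, passed under quantile and cyclic loess normalization, array weights and a robust variance trend. They also passed with a gene's mean, single-gene probe sets only or the dimmest 40% left out. Under median normalization or the block on the sample number they did not pass. Leaving out 1 sample gave 3 to 7 risen and 0 to 3 fallen members, 7 to 10 risen and 3 to 4 fallen pathway genes, and 2 to 3 called ligands and markers (7, 2, 15, 8 and 4 with all samples); over all probe sets it gave 565 to 857 calls instead of 1095. Gbp3, Samhd1 and Sp100 kept their call in each of these fits. An adjusted p threshold of 0.01 gave 4, 0, 8, 3 and 2. For ligands and markers, a threshold of 0.10, a gene's mean and single-gene probe sets gave 7 each. The sample numbers, as a replicate block, gave 3, 1, 8, 4 and 2, and 544 calls over all probe sets. The deviations of same-numbered samples correlated at -0.12, 0.016 and 0.26, so the samples were not treated as pairs; samples of number 3 correlated best with each other, those of numbers 1 and 2 did not. Dim signals, the small number of arrays and unlabelled array details limit all values.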
